A study of Mus musculus with 4 samples.

Results

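The replication-dependent histone genes on the array were taken as every non-control probe whose gene name in the scanner files began with Hist1h, Hist2h, Hist3h or Hist4h. They came to 36 genes on 47 probes, of 27741 genes on 41174 probes in all, and 1 probe stood for each gene, the one with the brightest mean log2 signal over the arrays. The set held 6 linker histone H1 genes, 11 H2a, 10 H2b, 3 H3 and 6 H4 genes. By the scanner files' mouse mm8 coordinates, 25 of them lay on chromosome 13, 7 on chromosome 3, 3 on chromosome 11 and 1 on chromosome 6.

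The study hybridised RNA of 4 CD4+ T cell samples from Balb/C mouse spleen and lymph nodes to 1-colour Agilent arrays, 1 array per group. Regulatory T cells (Treg, CD4+CD25+) had been transduced with a GFP lentivirus that carried a short hairpin RNA against Eos (si-Eos) or against Renilla luciferase (si-RL), kept for 60 h in medium with human IL-2 and sorted as GFP+. The Treg sample itself (natural Treg, CD4+CD25+) and the naive T sample (CD4+CD25-CD62Lhi) were not transduced, and the labels give no age, sex or number of animals for any of the 4. The sorted cells were bulk samples, so that fewer cells of a type and less RNA per cell cannot be told apart.

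Replication-dependent histone mRNAs encode the proteins that package newly made DNA. In cycling cells they accumulate in S phase, and they end in a stem-loop that is bound by the stem-loop binding protein Slbp in place of a poly(A) tail. Some of these genes also give polyadenylated mRNA, among them HIST1H1C and HIST2H2BE in human cells, which can be made outside S phase. The RNA was amplified with a kit whose cDNA step starts from an oligo(dT) primer, so how fully the mRNAs without a tail were copied was not tested. H2a, H2b, H3 and H4 form the nucleosome core, and H1 binds the DNA between cores.

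Several promoters are shown because their genes differed most between arrays, or because they belong to the same class as one that did and went the other way. Each line gives the 150 bases before the RefSeq transcript start, 5′ to 3′ on the gene's strand, and capitals mark, on either strand, the octamer (letters ATTTGCAT), the motif CCAAT of the CCAAT box, the motif TATAAA of the TATA box or the motif AAACACA of the H1 box. The regions, in mouse GRCm38.p6, were chr13:23738657-23738806, plus strand, for Hist1h1c, chr13:23622559-23622708, minus strand, for Hist1h1e, and chr13:23750938-23751087, plus strand, for Hist1h2ab. They were chr13:22035671-22035820, plus strand, for Hist1h2bk, chr13:21721894-21722043, plus strand, for Hist1h2bm, chr3:96269550-96269699, plus strand, for Hist2h2bb, and chr11:58948761-58948910, plus strand, for Hist3h2ba.
Hist1h1c: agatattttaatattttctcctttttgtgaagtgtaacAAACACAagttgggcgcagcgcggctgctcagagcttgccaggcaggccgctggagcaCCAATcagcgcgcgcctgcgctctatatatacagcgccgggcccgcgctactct
Hist1h1e: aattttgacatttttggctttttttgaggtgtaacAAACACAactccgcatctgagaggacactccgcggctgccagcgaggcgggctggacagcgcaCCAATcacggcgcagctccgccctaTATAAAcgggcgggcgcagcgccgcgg
Hist1h2ab: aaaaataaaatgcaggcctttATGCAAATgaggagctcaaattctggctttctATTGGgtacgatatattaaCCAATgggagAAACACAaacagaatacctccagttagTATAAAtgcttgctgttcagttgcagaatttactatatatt
Hist1h2bk: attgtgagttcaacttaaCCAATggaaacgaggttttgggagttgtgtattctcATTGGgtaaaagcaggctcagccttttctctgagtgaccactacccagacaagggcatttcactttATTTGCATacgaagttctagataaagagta
Hist1h2bm: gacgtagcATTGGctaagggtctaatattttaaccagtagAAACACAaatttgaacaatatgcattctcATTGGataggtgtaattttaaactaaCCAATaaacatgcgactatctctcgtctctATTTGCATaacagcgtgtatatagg
Hist2h2bb: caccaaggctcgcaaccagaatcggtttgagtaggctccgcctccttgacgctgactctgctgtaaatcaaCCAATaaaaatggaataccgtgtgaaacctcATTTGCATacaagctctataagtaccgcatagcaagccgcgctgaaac
Hist3h2ba: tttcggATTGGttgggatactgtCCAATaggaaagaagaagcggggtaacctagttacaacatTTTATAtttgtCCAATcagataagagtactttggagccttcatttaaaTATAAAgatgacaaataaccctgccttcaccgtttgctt

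The octamer, bound by the factor Oct1 in H2b promoters, lay in the 300-base RefSeq window (250 bases before the start and 50 after it) of 6 of 11 H2a genes and of 5 of 7 H2b genes. None of the 6 H1, 2 H3 or 5 H4 windows held it, and 1.74% of all 32851 windows in the table did. The H1 box lay in 5 of 6 H1 windows and in 7.18% of all windows. A CCAAT box was found in 28 of 31 histone windows, against 37.4% of all windows, and a TATA box in 20 of 31, against 13.6%. The 4 motifs did not overlap one another in any of 112 matches. All 36 genes matched a current RefSeq symbol, and Hist1h2bc, Hist2h2be, Hist3h2bb, Hist1h3a and Hist2h4 had no window. A match is a description of the sequence only, and whether it bears on the signals was not tested. Hist1h2bm, Hist1h2bk and Hist2h2bb each carry the octamer on the plus strand. The probes of Hist1h2bm and Hist1h2bk are each annotated to 4 RefSeq H2b genes, so their signals cannot be tied to the promoters shown.

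The processed signal had a 75th percentile of 320 on the array of the si-Eos-labelled library, 262 on the si-RL-labelled one, 392 on the Treg array and 303 on the naive T array. Each value below is a probe's processed signal divided by that percentile of its array, called scaled signal, so that 1 is the array's 75th percentile and a probe is compared only with itself. Eos mRNA (Ikzf4) was higher in the si-Eos-labelled library than in the si-RL-labelled library on all 3 of its probes, by 1.96, 0.93 and 1.19 on the log2 scale, which goes against the label. Foxp3, the factor that defines Treg, had a scaled signal of 8.26 in the si-Eos-labelled library, 0.420 in the si-RL-labelled library, 4.54 in Treg and 0.213 in naive T. Every direction between these libraries is therefore given by label only. Each group being a single array, spread between replicates could not be had and no test was run. A ± after a log2 difference combines the scanner software's errors for both spots and covers technical error only.

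Of the 36 histone genes, 33 were well above background in the si-Eos-labelled library, 34 in the si-RL-labelled library, 32 in Treg and 34 in naive T. There were 32 on all 4 arrays, and Hist1h2ac and Hist1h2be were on none. A member counted as measured in a comparison when it was well above background on both arrays.

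Over the whole set Treg and naive T differed little, while single genes differed in both directions. The median log2 difference of the 32 measured members was -0.19, beside -0.02 over all genes. It was -0.40 when arrays were scaled to their median and 0.07 with spike-in scaling. At least 2-fold higher in Treg were 3 members, Hist1h2ab, Hist1h2ak and Hist1h2ai, a share of 9.38%, against 5.52% of all 17657 measured genes. At least 2-fold lower were 2 members, Hist1h1c and Hist2h2bb, a share of 6.25%, against 2.03% of all genes.

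Between the hairpin libraries the differences of 2-fold or more all ran one way. The median over 33 measured members was 0.04, the same as the 0.04 of all genes. No member was at least 2-fold higher in the si-Eos-labelled library than in the si-RL-labelled one, where 10.7% of 17142 genes were. At least 2-fold lower were 6 members, or 18.2%, beside 10.2% of all genes: Hist1h1c, Hist3h2ba, Hist2h2bb, Hist2h2be, Hist1h4i and Hist1h1e.

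The si-RL-labelled library had a median difference from Treg of 0.42 over 32 members, where all genes had -0.01, and 0.09 with spike-in scaling. At least 2-fold higher were 7 members (21.9%, beside 7.9% of all genes), Hist1h1e, Hist2h2bb, Hist1h2bc, Hist1h4i, Hist1h1b, Hist1h1d and Hist2h2be. With normexp background correction only Hist1h1e of these stayed at 2-fold, at 2.68 on the log2 scale. The others, in the order named, fell to 0.48, 0.54, 0.94, 0.75, 0.68 and 0.09. Hist1h1c, Hist1h2aa, Hist1h2af, Hist2h2ac and Hist3h2a reached 2-fold in that setting instead, so the list depends on the background correction. Hist1h3a alone was at least 2-fold lower, 1 of 32 or 3.12%, beside 8.19% of all genes. The si-Eos-labelled library had a median of 0.42 against Treg, where all genes had 0.06, and 0.03 with spike-in scaling. In it 2 members, Hist1h1e and Hist1h2ab, were at least 2-fold higher (6.25%, beside 8.84% of all genes) and 2, Hist3h2ba and Hist1h1c, at least 2-fold lower (6.25%, beside 10.1%). Both comparisons use the same Treg array.

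**Figure D1:**
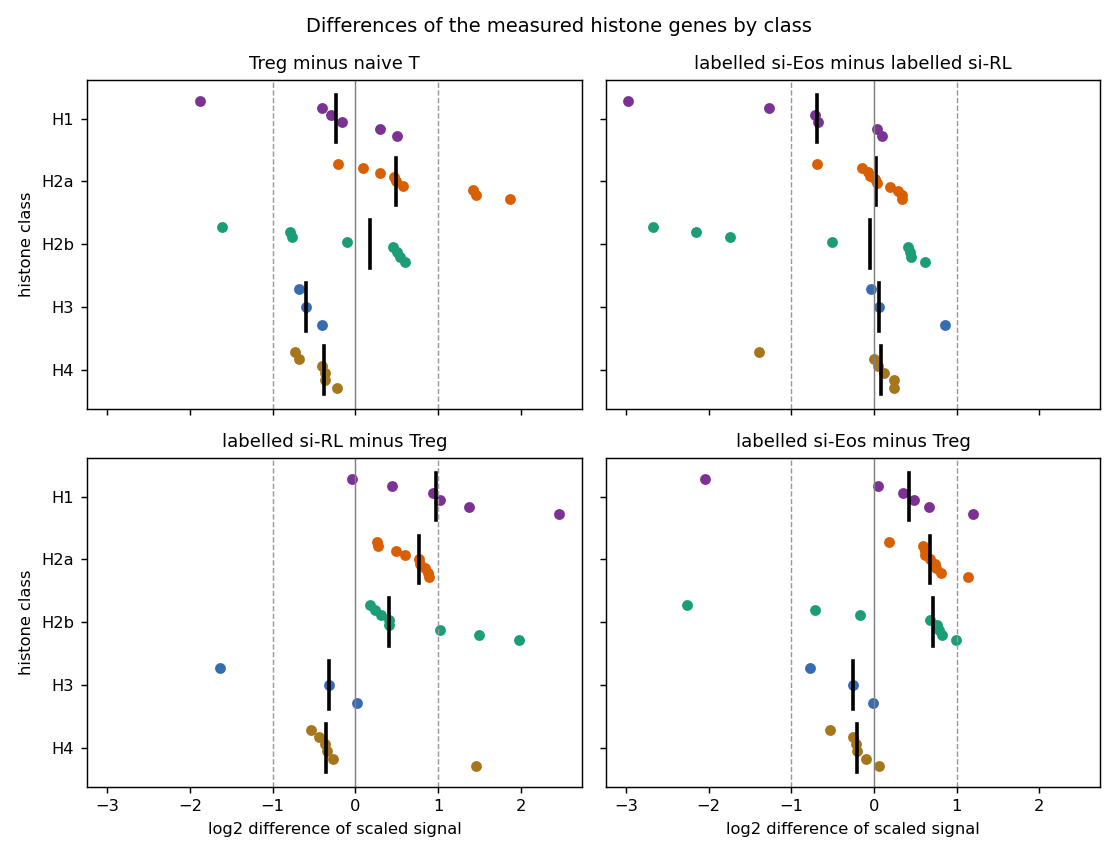
Log2 difference of scaled signal (x) of each measured histone gene by class (y) in the 4 comparisons, with 1 array per group. Points are genes, black bars are class medians and dashed lines mark 2-fold. H2a lies at a median of 0.49 and H4 at -0.38 for Treg against naive T, and the points far below 0 between the hairpin libraries are single H1, H2b and H4 genes.

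The classes differed from one another in Treg against naive T. The class medians on the log2 scale were -0.23 for H1, 0.49 for H2a, 0.17 for H2b, -0.60 for H3 and -0.38 for H4. H2a was higher in Treg under all 8 alternative settings, with medians of 0.13 to 0.75, and H4 was lower under all of them, with a gap between these 2 medians of 0.68 to 1.05. Not all settings could differ. Requiring a call on all 4 arrays kept the same 9 H2a genes, at 0.49, and the series value table, which held the same intensity, also gave 0.49. H3 was lower as well, with 3 genes and a highest median of -0.34. The H1 median turned to 0.03 with spike-in scaling and with normexp, and the H2b median turned to -0.43 when dim probes were kept in and to -0.04 with median scaling.

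Against Treg, both hairpin libraries also had H2a above 0 and H3 and H4 below 0. In the si-RL-labelled library the medians were 0.98 for H1, 0.77 for H2a, 0.41 for H2b, -0.31 for H3 and -0.36 for H4. In the si-Eos-labelled library they were 0.42, 0.68, 0.72, -0.26 and -0.21 in the same order of classes. H1, H2a and H2b were above 0 in all 8 alternatives, while H3 and H4 turned above 0 with normexp background correction, to at most 0.41. Between the hairpin libraries the medians were -0.69 for H1, 0.03 for H2a, -0.05 for H2b, 0.06 for H3 and 0.09 for H4. Of these the H1 median stayed below 0 in all alternatives (-0.88 to -0.61) and the H4 median above 0 (0.03 to 0.12), while those of H2a, H2b and H3 changed sign.

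**Figure D2:**
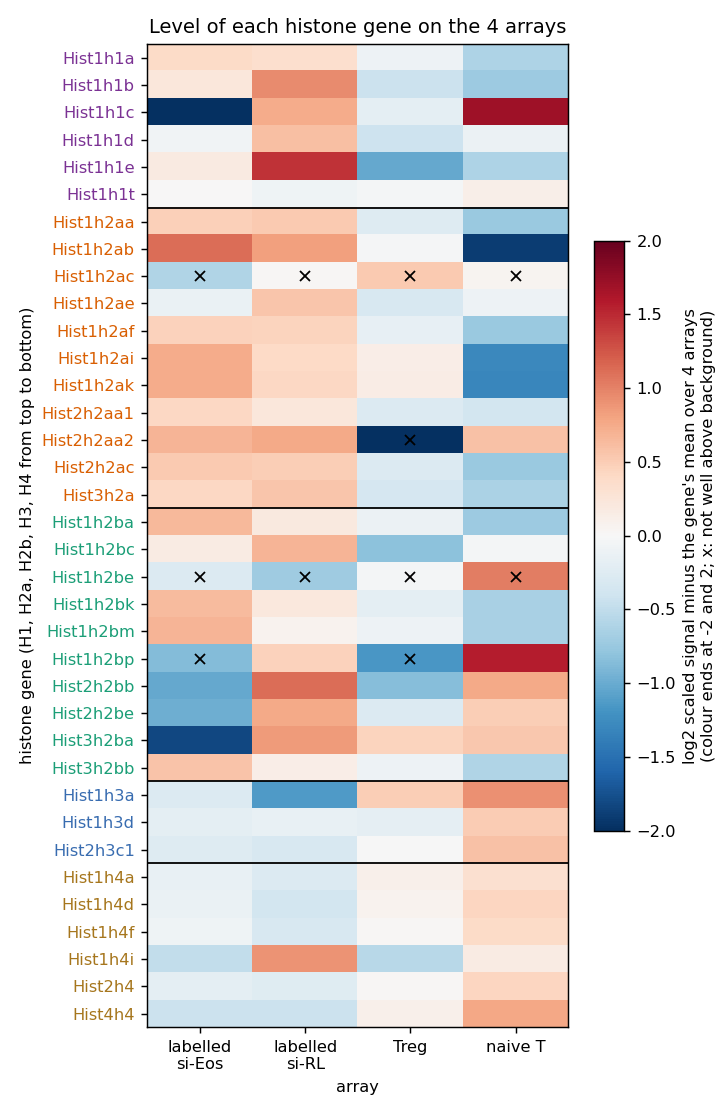
Log2 scaled signal of the 36 histone genes (rows, grouped by class) on the 4 arrays (columns), each gene shown relative to its own mean, with crosses where the probe was not well above background. All 3 H3 and 5 of 6 H4 genes are highest in naive T, and 8 of the 9 H2a genes measured on every array are lowest there.

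Among the H1 genes, Hist1h1c and Hist1h1e were at least 2-fold apart between the hairpin libraries. Hist1h1c, which encodes the H1.2 subtype, had a scaled signal of 1.18 in the si-Eos-labelled library, 9.22 in the si-RL-labelled library, 4.83 in Treg and 17.8 in naive T. It was highest in naive T and lowest in the si-Eos-labelled library. The log2 difference was -1.88 ± 0.20 for Treg against naive T, and -2.97 ± 0.20 was found between the si-Eos-labelled library and the si-RL-labelled one. Its probe lies at chr13:23747614-23747673 in mm8 and is annotated to 1 RefSeq gene.

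Hist1h1e, the H1.4 gene, had 7.94 in the si-Eos-labelled library, 19.1 in the si-RL-labelled library, 3.46 in Treg and 4.57 in naive T. Both hairpin libraries were above both fresh samples, by a log2 difference of 1.20 ± 0.20 for the label si-Eos and 2.47 ± 0.20 for the label si-RL against Treg. A further probe named Hist1h1e, 2320 bases away, gave -0.37 for the si-RL-labelled library against Treg, so the probes disagreed in sign there. For the si-Eos-labelled library against Treg this further probe gave -1.20, but it was not well above background in the si-Eos-labelled library. With the mean of all probes the differences were 0.000674 for the label si-Eos and 1.05 for the label si-RL against Treg. Hist1h1b, the H1.5 gene, had 0.740 and 1.21 in the libraries labelled si-Eos and si-RL, 0.468 in Treg and 0.381 in naive T. Hist1h1d, the H1.3 gene, had 0.879 and 1.40 in those libraries, 0.687 in Treg and 0.843 in naive T. Hist1h1a, the H1.1 gene, had 2.37 and 2.31 in the libraries labelled si-Eos and si-RL, 1.70 in Treg and 1.20 in naive T. The testis-specific Hist1h1t lay between 0.0567 and 0.0654 on all 4 arrays, a range of 0.21 on the log2 scale.

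**Figure D3:**
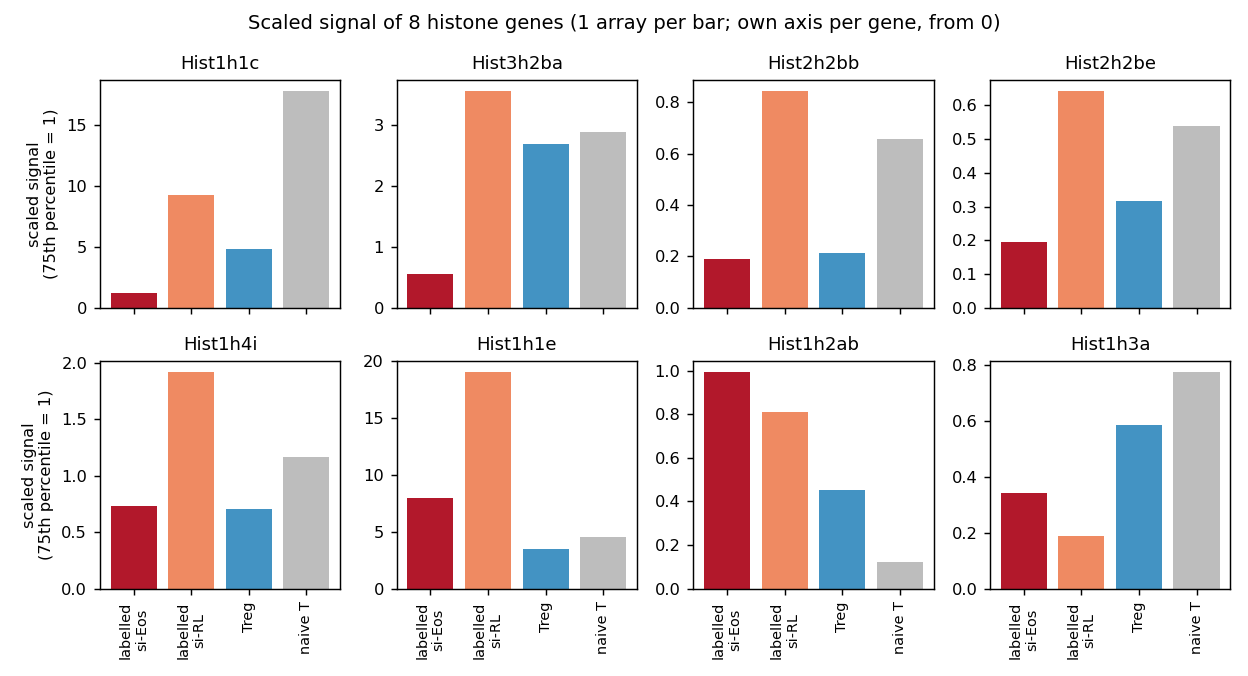
Scaled signal (y, array's 75th percentile = 1, own axis per gene from 0) of 8 histone genes on each array (x), 1 array per bar. Hist1h1c is lowest in the si-Eos-labelled library at 1.18, Hist1h1e is highest in the si-RL-labelled library at 19.1, and Hist1h2ab is lowest in naive T at 0.123.

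Of the 9 H2a genes measured on all 4 arrays, 8 were lowest in naive T. Hist1h2ab had a scaled signal of 0.995 and 0.812 in the libraries labelled si-Eos and si-RL, 0.452 in Treg and 0.123 in naive T. Treg was 1.87 ± 0.22 above naive T on the log2 scale, 3.67-fold, and the si-Eos-labelled library was 1.14 ± 0.21 above Treg. With normexp background correction the difference of the si-Eos-labelled library from Treg was 0.39, under 2-fold. Hist1h2ak had 12.9 and 10.2 in the libraries labelled si-Eos and si-RL, 8.56 in Treg and 3.12 in naive T, which in Treg was 2.74-fold the naive T value. Hist1h2ai had 6.03, 4.76, 3.94 and 1.47 in the same order of arrays and in Treg was 2.67-fold the naive T value, but its probe is annotated to 4 RefSeq H2a genes and cannot be credited to 1. With normexp the log2 differences for Treg against naive T were 0.88 for Hist1h2ak and 0.87 for Hist1h2ai, both under 2-fold.

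The other measured H2a genes lay closer together. Hist1h2af had 165 and 163 in the libraries labelled si-Eos and si-RL, 108 in Treg and 71.9 in naive T, but its probe is annotated to 2 RefSeq H2a genes. Hist2h2ac had 115, 112, 65.7 and 47.7 in that order of arrays, and its pair of probes differed by at most 0.10 in each comparison. Its other probe lies 25283 bases away and is annotated to 3 RefSeq H2a genes, and the probe used to none. The likeness of this pair therefore cannot be credited to Hist2h2ac alone. Hist1h2aa, known as a testis H2A gene, had 156 and 161 in the hairpin libraries labelled si-Eos and si-RL, 93.9 in Treg and 66.8 in naive T. Its probe is annotated to 1 RefSeq gene, but whether it also collects signal from other H2a genes was not tested. Hist3h2a had 36.9 and 40.8 in these libraries, 22.0 in Treg and 18.0 in naive T, while another probe 567 bases away gave -1.17 for Treg against naive T, against 0.29 for the probe used. The other probes of Hist3h2a gave 0.16 and 0.96, above 0 like the probe used. The one with 0.96 lies 17380 bases away and was not well above background in either hairpin library. For the si-Eos-labelled library against Treg the probe used gave 0.74, the one 567 bases away -0.42 and the one 169 bases away 0.31. The mean of all probes gave -0.44 there. Of the H2a genes measured on all 4 arrays, only Hist1h2ae was not lowest in naive T. It was lowest in Treg at 0.0926, with 0.105 and 0.170 in the libraries labelled si-Eos and si-RL and 0.107 in naive T. Hist2h2aa2 was not well above background in Treg and was at 0.0397 in naive T. That is 1.38-fold the dimmest signal that passed the background call in Treg, 0.0287. The scanner error of the difference was 1.32 on the log2 scale and the probe is annotated to no RefSeq gene, so the bound allows no firm statement.

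Of the 8 H2b genes measured in both hairpin libraries, 4 were below 0 and 4 above 0 between the si-Eos-labelled and the si-RL-labelled library. Hist3h2ba, at chr11:58765641-58765700 in mm8, had 0.560 in the si-Eos-labelled library, 3.57 in the si-RL-labelled library, 2.69 in Treg and 2.89 in naive T. The 3 arrays other than the one labelled si-Eos lay close together, and that library was 2.67 ± 0.20 lower than the si-RL-labelled one on the log2 scale. Hist2h2bb, at chr3:96364236-96364295, had 0.190 in the si-Eos-labelled library, 0.845 in the si-RL-labelled library, 0.214 in Treg and 0.656 in naive T. It was high in naive T and the si-RL-labelled library, and low in the other two, with a log2 difference of -1.61 ± 0.21 for Treg against naive T, beside -2.15 ± 0.21 for the hairpin pair. With normexp background correction the difference for Treg against naive T was -0.22, and that for the si-RL-labelled library against Treg was 0.48, both under 2-fold. Hist2h2be had the same order of arrays, 0.193, 0.644, 0.317 and 0.538, with a difference of -1.73 ± 0.21 between the si-Eos-labelled library and the si-RL-labelled one. Hist1h2bp was not well above background in Treg or the si-Eos-labelled library, and was at least 4.58-fold higher in naive T than in Treg and at least 2.13-fold higher in the si-RL-labelled library than in the si-Eos-labelled one.

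Hist1h2bk, Hist1h2bm, Hist1h2ba and Hist3h2bb went the other way. Hist1h2bm had 7.87 in the si-Eos-labelled library, 5.14 in the si-RL-labelled library, 4.56 in Treg and 3.13 in naive T. Hist1h2bk had 7.15, 5.37, 4.04 and 2.96 in that order of arrays, and its other probe, 66 bases away, gave differences at most 0.06 from those of the probe used. The probes of Hist1h2bm and Hist1h2bk are each annotated to 4 RefSeq H2b genes, so that each can collect signal from several genes. Hist1h2ba, known as a testis H2B gene, had 4.94, 3.62, 2.91 and 1.92 in that order, and whether its probe also collects signal from other H2b genes was not tested. Hist3h2bb had 7.46, 5.52, 4.67 and 3.29 in the same order, but its probe is annotated to the RefSeq gene that the name Hist3h2ba stands for, although the Hist3h2ba probe gave the opposite direction. The name Hist3h2bb itself matched H2bu1-ps, a pseudogene symbol, and was counted as an H2b gene here and in the class medians. Hist1h2bc was highest in the si-RL-labelled library at 1.26, with 0.886 in the si-Eos-labelled library, 0.447 in Treg and 0.771 in naive T.

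The 3 H3 genes were highest in naive T. Hist2h3c1 had 83.9 in the si-Eos-labelled library, 80.8 in the si-RL-labelled library, 100 in Treg and 152 in naive T, and Hist1h3d had 65.5, 67.1, 66.2 and 106 in that order. The probes of both are annotated to several H3 genes (3 and 4), and their signal differed by at most 0.31 in size on the log2 scale between any of the 3 arrays other than naive T. Hist1h3a, annotated to 1 gene, had 0.343 in the si-Eos-labelled library, 0.189 in the si-RL-labelled library, 0.586 in Treg and 0.777 in naive T. It was the only H3 gene below Treg by 2-fold or more in a hairpin library, with -1.63 ± 0.21 for the label si-RL.

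Of the H4 genes, 5 of 6 were highest in naive T. Hist1h4f had 8.78 in the si-Eos-labelled library, 7.43 in the si-RL-labelled library, 9.40 in Treg and 12.1 in naive T. Its probe is annotated to 4 RefSeq H4 genes, and those of Hist1h4d and Hist1h4a to 4 and 3, with genes in common. None of these probes can be credited to 1 gene, though each was counted as a separate gene here and in the class medians. Hist1h4d, Hist1h4a, Hist2h4 and Hist4h4 differed by -0.68 to -0.23 for Treg against naive T. Hist1h4i was apart from these, with 0.733 in the si-Eos-labelled library, 1.92 in the si-RL-labelled library, 0.701 in Treg and 1.16 in naive T. It was the only H4 gene at least 2-fold apart in any of the 4 comparisons, 2.74-fold higher in the si-RL-labelled library than in Treg and lower by 1.39 ± 0.20 on the log2 scale in the si-Eos-labelled library than in the si-RL-labelled one. Its probe is annotated to no current RefSeq gene.

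Except for Hist1h2ai, the genes at least 2-fold apart in a comparison were measured by probes annotated to 1 gene or to none. Such probes stood for 26 of the 36 genes, and 10 genes had a probe annotated to several. None of these 10 reached 2-fold between the hairpin libraries or in either hairpin library against Treg. Of all genes, 10.7% were higher and 10.2% lower between these libraries. Against Treg the shares were 7.9% and 8.19% for the label si-RL, and 8.84% and 10.1% for the label si-Eos. For Treg against naive T, 1 of the 10 reached 2-fold, Hist1h2ai, beside 5.52% higher and 2.03% lower of all genes. Whether the annotation of a probe bears on its difference was not tested. Where a gene had further probes, 27 comparisons of them had both measured, with a median gap of 0.14 on the log2 scale and opposite signs in 4, the highest gap being the 2.84 of Hist1h1e.

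Treg against naive T and the hairpin libraries share no array, so their differences can be set side by side. Of the 32 members measured on all 4 arrays, 21 (65.6%) had the same sign in both, where 56.5% of 16501 genes did. Across genes, which are not independent replicates, Pearson's r was 0.60 and Spearman's rho 0.56, beside 0.38 and 0.23 for all genes, with the slide and scan shared by all 4 arrays. Lower by at least 2-fold in both were 2 members, Hist1h1c and Hist2h2bb, and 162 of all genes, though with normexp Hist2h2bb did not reach 2-fold for Treg against naive T. Hist3h2ba differed between the hairpin libraries and by only -0.10 ± 0.20 between Treg and naive T.

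**Figure D4:**
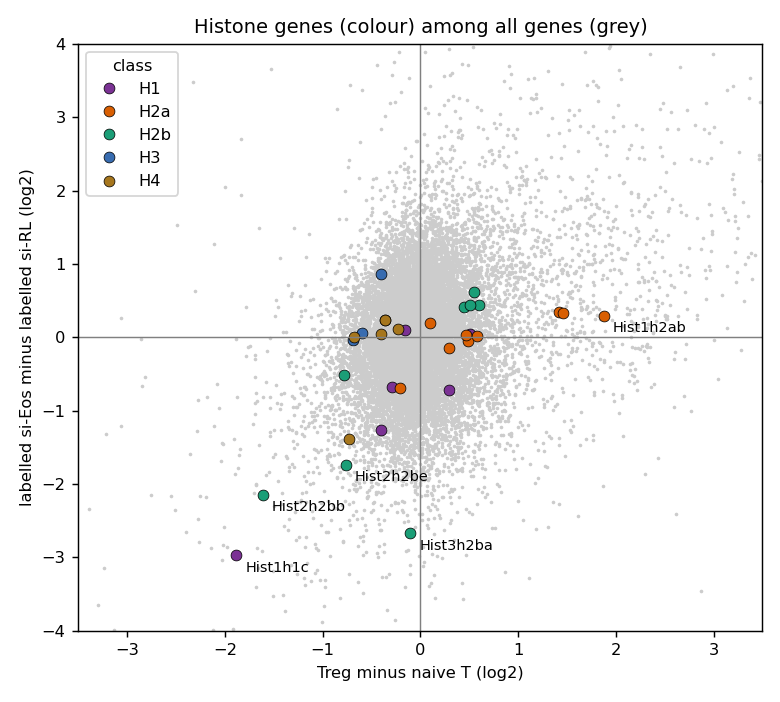
Log2 difference of Treg against naive T (x) and of the si-Eos-labelled library against the si-RL-labelled one (y) for each gene measured on all 4 arrays (grey) and the 32 histone genes by class (colour). Grey genes beyond the ends of the axes are not drawn. Hist1h1c and Hist2h2bb lie at the lower left, at -1.88 and -2.97 and at -1.61 and -2.15.

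Other genes of the pathway came from lists chosen with earlier results known. For Treg against naive T the S phase and the G2 and M phase medians were above that of the histone genes. Of 23 measured S phase genes, 11 exceeded naive T by 2-fold or more in Treg and none was that much lower, with a median of 0.85. All 19 measured G2 and M phase genes exceeded it by 2-fold or more, with a median of 2.22. The histone set had a median of -0.19. Of all genes, 5.52% were that much higher and 2.03% that much lower. Rrm2, a ribonucleotide reductase subunit, had 2.72 ± 0.21 in that comparison, Cdc6, a factor of replication origins, 2.75 ± 0.24, and Aurkb, a mitotic kinase, 2.83 ± 0.24. Between the hairpin libraries 8 of 24 S phase genes were at least 2-fold higher by label in si-Eos, with a median of 0.90. Mcm5, part of the replicative helicase, was at 2.35 ± 0.20 and Lig1, the replicative ligase, at 2.16 ± 0.20. In the same comparison the G2 and M phase list had 3 of 19 at least 2-fold higher and a median of 0.25. Of all genes, 10.7% were at least 2-fold higher. The si-RL-labelled library had an S phase median of -0.50 against Treg (3 higher and 5 lower of 24). Its G2 and M phase median was 0.61 (6 higher of 19), where 7.9% of all genes were that much higher and 8.19% lower. The si-Eos-labelled library had medians of 0.42 (2 higher of 24) and 1.06 (11 higher of 19), where 8.84% of all genes were higher. The histone set also had a median of 0.42 there, like the S phase list.

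The 15 histone mRNA processing genes had medians of -0.00 for Treg against naive T, 0.30 for the hairpin pair, 0.08 for the label si-RL and 0.38 for the label si-Eos against Treg. Slbp, the stem-loop binding protein, had a scaled signal of 10.1 and 7.27 in the libraries labelled si-Eos and si-RL, 7.55 in Treg and 6.13 in naive T. Zfp473, a zinc-finger protein of the histone 3′ end complex, had 0.730, 0.182, 0.391 and 0.336 in that order and was 2.0 ± 0.21 higher in the si-Eos-labelled library than in the si-RL-labelled one. The 15 chaperones had medians between -0.14 and 0.38, and the large subunit of chromatin assembly factor 1, Chaf1a, had 2.08 and 0.399 in the libraries labelled si-Eos and si-RL, 0.845 in Treg and 0.139 in naive T.

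Variant histones are made also outside S phase. H1f0, a linker histone of non-dividing cells, had 27.2 and 36.8 in the libraries labelled si-Eos and si-RL, 7.04 in Treg and 3.26 in naive T, and was 2.39 ± 0.20 (label si-RL) and 1.95 ± 0.20 (label si-Eos) above Treg. H2afz, an H2a variant, had 75.1 and 47.9 in the libraries labelled si-Eos and si-RL, 82.6 in Treg and 44.8 in naive T. Of 10 measured variants, 1 was at least 2-fold lower in the si-Eos-labelled library than in the si-RL-labelled one, H2afv with -1.07 ± 0.20, where 10.2% of all genes were. Of the cell cycle arrest and p53 target genes, 6 of 10 were at least 2-fold higher in the si-RL-labelled library than in Treg (7.9% of all genes), and 4 of 10 in the si-Eos-labelled library (8.84%), where Btg2 was lower at -1.94. Cdkn1a, an inhibitor of cyclin-dependent kinases, had 6.71 and 4.40 in the libraries labelled si-Eos and si-RL, and 0.0356 in Treg.

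**Figure D5:**
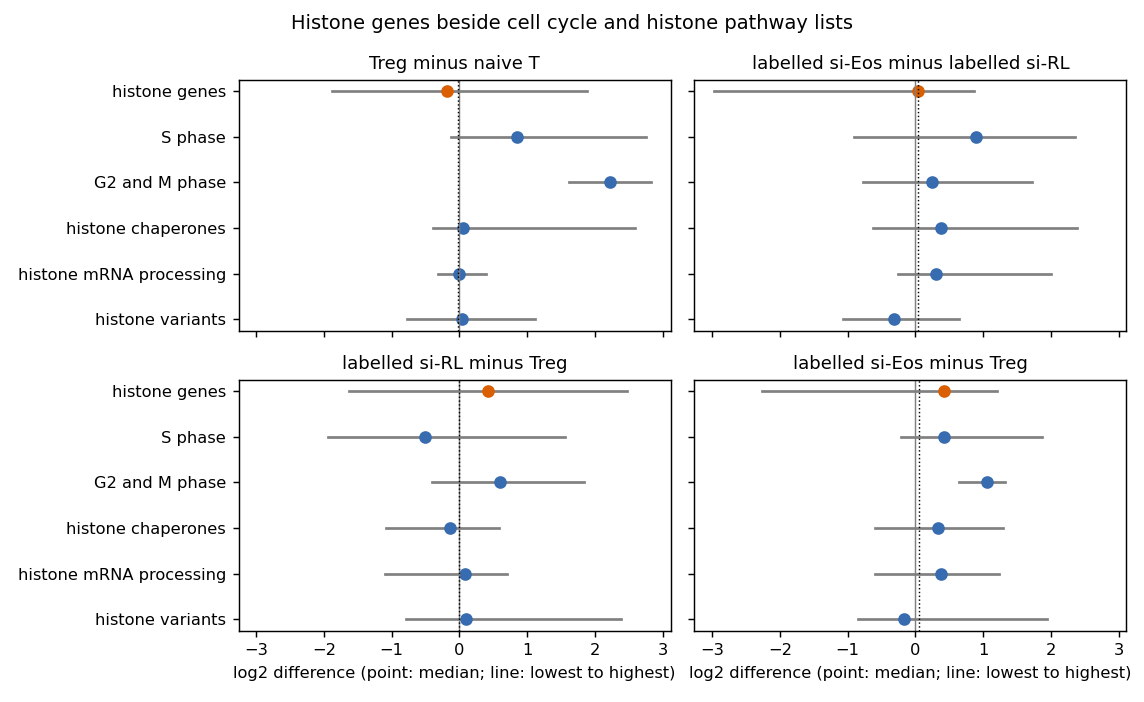
Median (points) and lowest to highest value (lines) of the log2 difference (x) over the measured genes of the histone set and of related lists (y) in each comparison, with a dotted line at the median of all genes. S phase and G2 and M phase lists lie at 0.85 and 2.22 for Treg against naive T, where the histone genes lie at -0.19.

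Markers of cell types were read beside these values. The 6 naive T markers summed to 50.9 and 145 scaled signal in the libraries labelled si-Eos and si-RL, 64.5 in Treg and 186 in naive T. They had the same order of arrays as Hist1h1c. Of the 6, 5 lay 2-fold or more lower in Treg than naive T, where 2.03% of all genes did. Between the si-Eos-labelled library and the si-RL-labelled one 4 of them did, where 10.2% of all genes did. Ccr7 went the other way between the hairpin libraries, with 30.7 for the label si-Eos and 10.9 for the label si-RL. Their part in the histone values was not tested. The 7 Treg markers summed to 312, 120, 139 and 27.9 in that order of arrays, of which Tnfrsf18 gave 237, 109, 81.7 and 24.1. Of these 7, 5 were at least 2-fold below Treg in the si-RL-labelled library, where 8.19% of all genes were. The median over the list was -2.29, with Ikzf2 at -3.95. The 8 B cell markers summed to 5.11, 3.77, 31.7 and 27.5 in that order, and Igj gave 22.5 of the Treg sum and 23.1 of the naive T sum. The 7 markers of CD8 and NK cells summed to 54.5 in the si-Eos-labelled library, 4.04 in the si-RL-labelled one, 8.99 in Treg and 7.98 in naive T, of which Nkg7 gave 50.5 in the first. The 8 pan T markers summed to 300, 219, 324 and 382 in the order si-Eos-labelled, si-RL-labelled, Treg and naive T. The 9 myeloid markers summed to between 0.901 and 1.22 on each array, and the 6 erythroid and platelet markers to between 0.960 and 1.52. The part of these in the histone values was not tested.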

How the data were processed

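The deposited scanner files hold spot intensity on a linear scale from Agilent Feature Extraction 9.5.3.1, with the background removed by spatial detrending and no step to equalise the arrays, per the file headers. All 4 arrays were on 1 slide in 1 scan, per the file headers, so neither separates the groups. The deposited series value table held the same intensity, with a median ratio to the scanner files of 1.00 and 100% of spots within 0.5%. Column medians were 38.5 for si-Eos, 31.5 for si-RL, 50.5 for Treg and 33.2 for naive T. It was linear and uncentred.

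From the deposited intensity, a log2 level was computed after dividing each processed signal by the 75th percentile of its array's non-control probes, leaving out 71 to 94 of 43379 flagged spots per array. No spot was saturated, and 64.0% to 68.3% of probes were well above background. Python 3.11.15 with pandas 2.3.3 was used, and R 4.3.3 with limma 3.58.1 for the normexp alternative (offset 50). The error is the scanner software's error of both spots. The number of arrays limits the precision. A dim array gave "at least N-fold", the bright level divided by the dim probe's own level or, if higher, by the dimmest signal that passed the background call on that array. The counting step was tested on simulated data. No count model was used.

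Members and lists were chosen with earlier results of these data known. Named were, per comparison, the 8 members with the largest difference, the member with the highest mean level of each class, members with a bound of at least 2-fold, members whose probes disagreed in sign at 2-fold, the testis histones, Eos and Foxp3, and up to 4 genes of each pathway list with the largest difference. Other genes were named to show their class. Promoters came from RefSeq, GRCm38.p6. Scaling, background correction, probe choice, filter and value source were varied.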

Additional observations from a re-analysis of the deposited data

Results flagged for a closer look

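In 3 histone genes the hairpin libraries lay on opposite sides of Treg, on each side by more than the scanner error. Hist2h2bb, Hist1h1t and Hist1h3d also had opposite signs, but with at least 1 side within that error. For Hist2h2bb the differences were -0.17 ± 0.21 (label si-Eos) and 1.98 ± 0.21 (label si-RL). The share of all genes with opposite signs is not given here. Hist1h1c differed from Treg by -2.04 on the log2 scale in the library labelled si-Eos and by 0.93 in the library labelled si-RL. Hist2h2be differed by -0.71 for the label si-Eos and by 1.02 for the label si-RL. Hist3h2ba differed by -2.26 for the label si-Eos and by 0.41 for the label si-RL. Hist1h1c, Hist2h2be and Hist3h2ba were flagged because 1 array moved one way and the other array the opposite way against a shared Treg array. Each moved by more than the scanner error of 0.20 or 0.21, and with 1 array per group the difference was not tested. On the si-RL side Hist3h2ba was at 0.0753 with spike-in scaling and Hist2h2be at 0.0893 with normexp, both within that error.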

How the results depend on the processing

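Of the recomputed medians and counts, 82 stayed near the value reported and 14 moved by more than the scanner error or by over 1.5 times. All 23 member differences of at least 2-fold kept their sign in each scaling, background correction, probe mean and in the value table. A kept sign is a weaker condition than 2-fold, and several of them fell well under it. Hist1h1e was at 0.000674 for the label si-Eos against Treg with the mean of all probes. With normexp Hist2h2be was at 0.0893 for the label si-RL against Treg and Hist2h2bb at -0.22 for Treg against naive T. The number that stayed at 2-fold throughout is not given here. For Treg against naive T, the median moved to -0.40 with median scaling and to 0.0744 with spike-in scaling, 1 member was at least 2-fold higher with normexp and 5 were lower with no filter on dim probes. For the si-RL-labelled library against Treg, the median was 0.0914 with spike-in scaling and 0.63 with normexp, where 2 members were lower. For the si-Eos-labelled library against Treg, spike-in scaling gave a median of 0.0300 with 0 higher and 4 lower, normexp gave 11 higher and 6 lower, and the mean of all probes gave a median of 0.0636 with 1 higher. The cause was not tested. Spike-in scaling moved the median of all genes to 0.24 for Treg against naive T, -0.34 for the label si-RL and -0.33 for the label si-Eos against Treg, and normexp to 0.21, -0.31 and -0.36. Median scaling moved it to -0.23 for Treg against naive T and to 0.17 for the label si-Eos against Treg. The share of higher among 2-fold genes was 73.1% for Treg against naive T, 55.1% with median scaling, 87.2% with spike-in scaling and 83.7% with normexp. It was 49.1% for the label si-RL against Treg, 20.5% with spike-in scaling and 17.7% with normexp. It was 46.7% for the label si-Eos against Treg, 21.2% with spike-in scaling and 19.7% with normexp. Over all genes, 974 were at least 2-fold higher for Treg against naive T (772 to 2160 over the alternatives) and 359 lower (209 to 985). Between the hairpin libraries 1832 were higher (1138 to 3585) and 1743 lower (833 to 2896). For the label si-RL against Treg 1354 were higher (699 to 2602) and 1404 lower (1241 to 4490), and for the label si-Eos 1587 (836 to 3031) and 1808 (1568 to 5927). No paired analysis was possible because each group holds 1 array. Probes near background, such as those of Hist1h2ac and Hist1h2be, allow no statement on their genes.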
